A study of Mus musculus with 8 samples.

Results

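The genes described here encode the proteins of the cytosolic ribosome in mouse intestinal epithelium. They were chosen by symbol (Rpl or Rps followed by a number with an optional letter, Rplp0 to Rplp2, and Rpsa) and by a total of at least 10 reads over the 8 libraries. This gave 84 of the 23366 gene symbols, 51 of the large subunit and 33 of the small subunit. All 84 symbols of this form passed the read minimum. The lowest total inside it was 29 reads, for Rpl39l, and no symbol of this form lay outside it. Of the 84 genes, 7 are paralogs, second versions of a ribosomal protein gene: Rpl3l, Rpl7l1, Rpl10l, Rpl22l1, Rpl39l, Rps27l and Rps4y2. Rps4y2 is annotated as a pseudogene.

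The study compared 2 genotypes of 6-week-old male littermates in 2 sorted cell populations. Control mice carried floxed Sox4 on both alleles (Sox4fl/fl) without Cre, and Sox4cKO mice carried the same alleles with villin-Cre, which acts in the intestinal epithelium from embryonic life on. Both genotypes therefore share the floxed alleles, and only Sox4cKO carries Cre. From each animal 50000 CD326+ (EpCAM-positive) cells were sorted as CD44minus, which enriches for the villus, or CD44plus, which enriches for the crypt. Each of the 4 groups held 2 libraries of total RNA, 1 from each of 2 animals, and paired values are given in the order replicate 1 and replicate 2.

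Ribosomal proteins assemble with ribosomal RNA in the nucleolus into a small subunit, which scans and decodes mRNA, and a large subunit, which forms peptide bonds. Their mRNAs in mammals begin with a run of pyrimidines, the terminal oligopyrimidine (TOP) tract, through which their translation is controlled by mTOR. In the intestine, stem cells and transit amplifying cells divide in the crypt and their offspring mature on the villus, and dividing cells make ribosomes at a high rate.

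Depth and background differed between libraries. Gene counts ranged from 886194 to 6963345 in CD44minus and from 6007554 to 13238050 in CD44plus. Background, estimated from reads per base on 1432 receptor genes of smell and pheromones, made up 15.1 and 17.1% of gene counts in the replicate 1 CD44minus libraries of control and Sox4cKO, 5.67% in control replicate 2, 0.773% in Sox4cKO replicate 2, and 0.283 to 1.49% in CD44plus. Sox4cKO CD44minus replicate 2 thus stood apart from the other CD44minus libraries. The targeted gene Sox4 had 123 and 271 reads in Sox4cKO CD44plus against 1438 and 658 for control, and in CD44minus 4 and 1 against 10 and 21 reads. The gates matched their labels: 9 villus enterocyte markers summed to 10525 to 54780 CPM in CD44minus and 1289 to 1923 in CD44plus, and 10 crypt stem and dividing cell markers to 333 to 713 and 7434 to 9715. CPM here is a gene's reads divided by the library total after its scaling by the trimmed mean of M values (TMM). Markers of some other cells were also higher in CD44plus. Of 5 stroma and endothelium markers, 2 were higher and 3 lower there in control. The 8 T cell markers summed to 155 to 843 CPM in CD44minus and 1971 to 5061 in CD44plus, and the 4 mast cell markers to 7.9 to 38.1 and 1647 to 16790. Every marker of these 2 lists had reads in every library.

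Ribosomal protein genes took a small share of the reads in every library, and a larger share in CD44plus. In CD44minus they made up 0.243 and 0.323% of gene counts for control and 0.238 and 0.432% for Sox4cKO. In CD44plus the shares were 1.22 and 1.43% for control and 1.11 and 1.26% for Sox4cKO. The lowest CD44plus share was above the highest CD44minus share. Exact binomial 95% intervals were narrow against this gap, 0.427 to 0.437% for the highest CD44minus library and 1.11 to 1.12% for the lowest CD44plus library, and cover counting error only. In CD44minus the summed CPM was 1448 and 2958 for control and 1385 and 8200 for Sox4cKO. In CD44plus it was 13313 and 15641 for control and 12377 and 15804 for Sox4cKO. The gates did not overlap in this sum either, but Sox4cKO CD44minus replicate 2 lay well above the other CD44minus libraries. In bulk RNA, fewer cells of a type and less RNA per cell cannot be told apart.

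**Figure D1:**
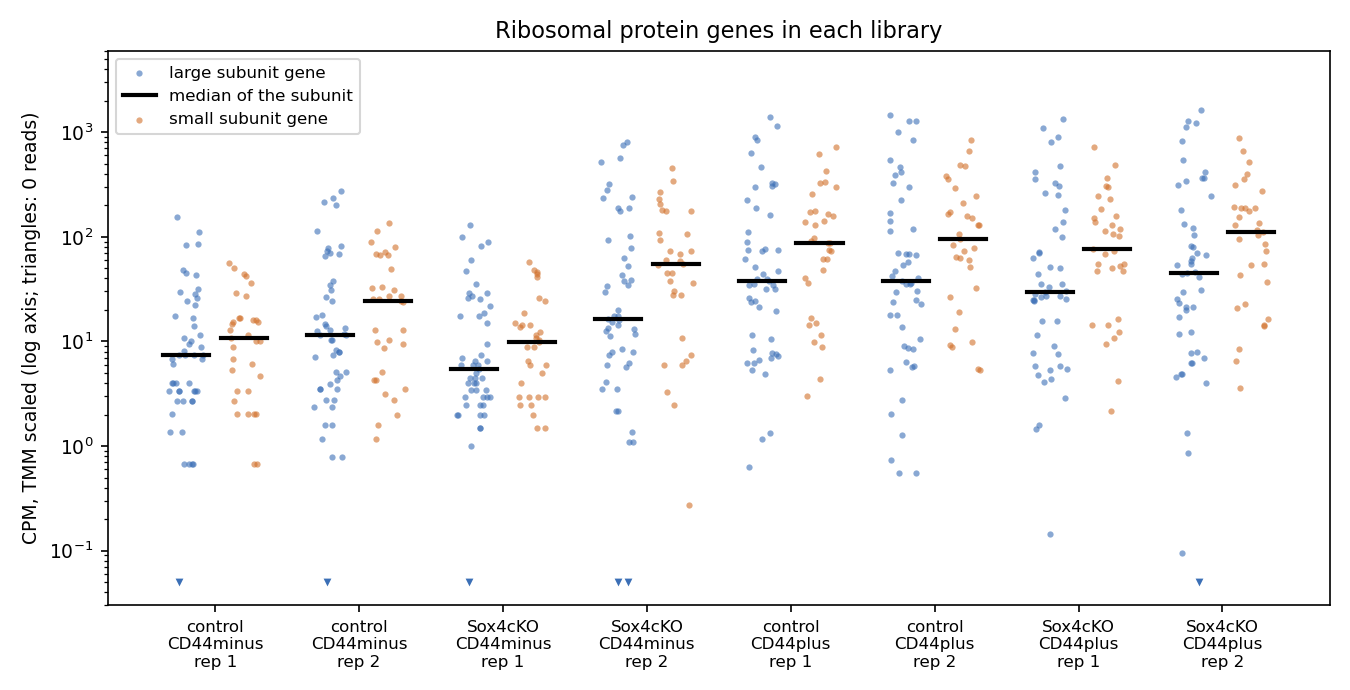
CPM (TMM scaled, log axis) of each of the 84 ribosomal protein genes in each library. Points are genes, black bars the median of each subunit, and triangles genes with 0 reads; the medians over all members lie between 6.19 and 34.1 in CD44minus and between 50.3 and 60.8 in CD44plus.

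Both subunits were higher in CD44plus, in about the same proportion. In CD44minus, large subunit genes had 1.89 and 1.73 reads for each small subunit read in control mice and 1.85 and 1.67 in Sox4cKO mice. In CD44plus they had 1.71 and 1.76 in control mice and 1.78 and 1.80 in Sox4cKO mice. The ratios of the 2 gates overlapped, and so did those of the 2 genotypes within CD44minus. In CD44plus both Sox4cKO ratios were above both control ratios, by less than 0.1. The 2 highest ratios belonged to the 2 libraries of highest background, in which background reads were predicted to make up 7.45 and 8.63% of the members' reads, and their part in the ratio was not tested. The median small subunit gene was above the median large subunit gene in every library, at 10.8 against 7.41 CPM in control CD44minus replicate 1 and 112 against 44.6 CPM in Sox4cKO CD44plus replicate 2.

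Relative to reads of epithelial markers, the gates also differed, and the CD44minus libraries were alike. For each read of 7 epithelial markers (Epcam, Cdh1, Vil1, Cdx2, Krt8, Krt18 and Krt19) CD44minus libraries held 0.451 and 0.447 ribosomal protein reads for control and 0.458 and 0.442 for Sox4cKO. CD44plus libraries held 1.99 and 2.45 for control and 1.74 and 2.53 for Sox4cKO. The mean was 0.449 ± 0.0069 (SD, n = 4) in CD44minus and 2.18 ± 0.378 (SD, n = 4) in CD44plus, 4.85-fold higher. On this measure Sox4cKO CD44minus replicate 2 no longer stood apart, and the genotypes had almost the same mean in CD44minus (0.449 in control and 0.4498 in Sox4cKO). This within-library ratio shows unequal change of the 2 sets of genes and does not show that the markers stayed constant. Ribosomal protein reads come from all cells sorted, and T cell and mast cell markers were higher in CD44plus. The part of those cells in the fold was not tested. The fold depended on the marker. The gates did not overlap for Epcam (2.85 to 3.07 against 8.83 to 13.3 ribosomal protein reads for each Epcam read) or for Cdh1, Cdx2, Krt8 and Krt19. For each read of Vil1, which was itself lower in CD44plus (529 to 732 CPM) than in CD44minus (1029 to 5378 CPM), the members had 1.29 to 1.52 reads in CD44minus and 16.9 to 29.6 in CD44plus. The gates overlapped for Krt18, at 12.3 to 19.0 in CD44minus and 18.2 to 24.9 in CD44plus.

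**Figure D2:**
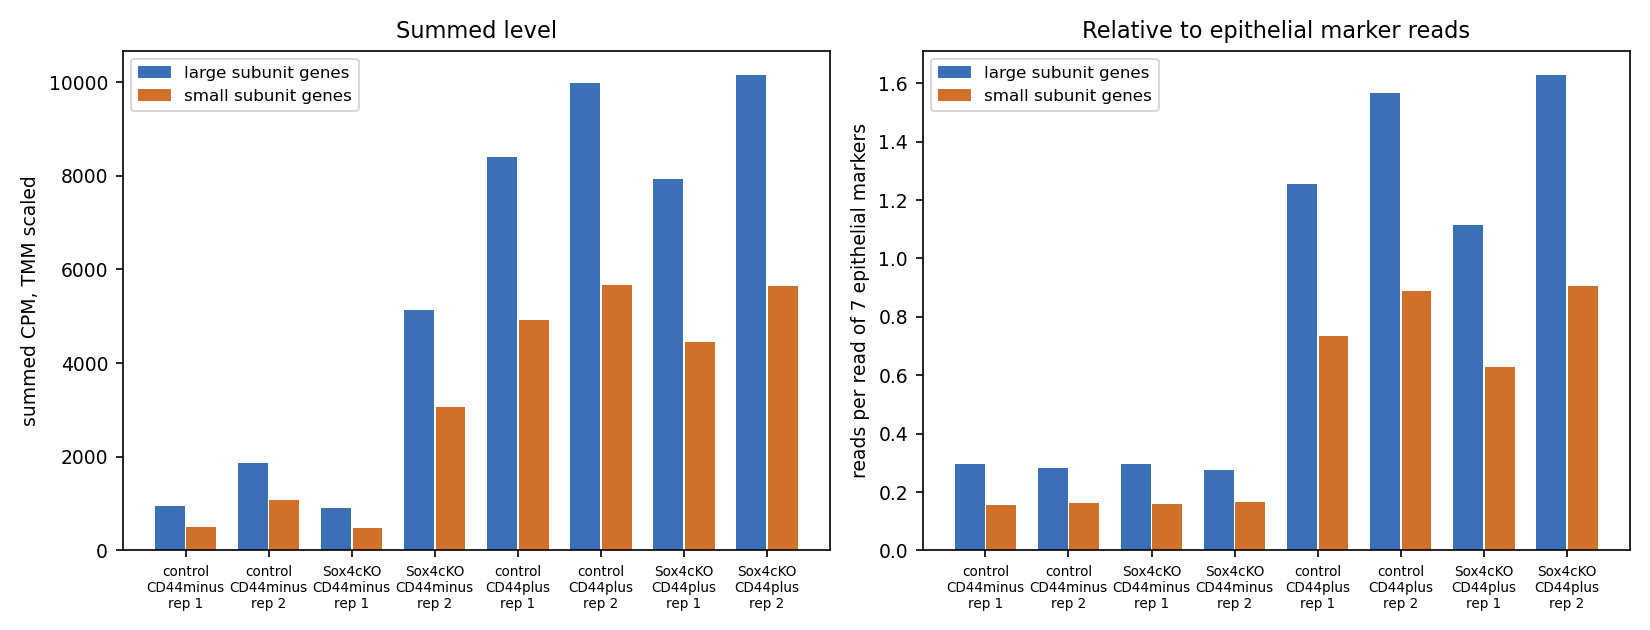
Left, summed CPM of large and small subunit genes in each library; right, their reads for each read of 7 epithelial markers. The left bars of Sox4cKO CD44minus replicate 2 exceed those of the other CD44minus libraries, whereas on the right the 4 CD44minus libraries lie together, between 0.442 and 0.458 for both subunits summed.

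Measured this way, 66 of the 84 genes were higher in every CD44plus library than in every CD44minus library, against 18.1% of all genes tested, and none was lower, against 5.94%. The 66 include Rpl26, whose level is near the limit of detection. These were 37 of the 51 large and 29 of the 33 small subunit genes. The ratio of the gate means had a median of 4.58 over the 76 members with reads in both gates that are not paralogs, with a middle range of 3.13 to 5.40. Among the largest ratios were those of Rpl13 with 7.81-fold and Rps19, mutated in Diamond-Blackfan anaemia, with 7.65-fold. At the bottom lay Rps27 (0.977-fold) and Rpl9 (1.08-fold), both of which share over 90% of their transcript with other annotated copies. Rpl10 (92.1% shared) and Rps12 (90.1%) had higher ratios, 2.90- and 2.89-fold, and Rpl28 (34.5%) had 1.37-fold. The part of shared sequence in these ratios was not tested.

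The gates were then compared gene by gene in control mice with edgeR's quasi-likelihood test over all 20427 genes that passed its filter, 83 of the members among them. Of these 83, 11 rose in CD44plus at an adjusted p of 0.05 or less (7 large and 4 small subunit genes) and none fell, against 2.01% of all genes called higher and 0.445% called lower. The log2 fold change was positive for 79 of 83 members, with a median of 2.52, or 5.73-fold, when the median of all genes was -0.19. The median was 2.39 for the large and 2.71 for the small subunit. At an unadjusted p under 0.05, 63 members were higher and none was lower, against 14.2 and 8.79% of all genes. Both CD44plus values lay above both CD44minus values for 77 of 83 members, against 38.7% of all genes, and 3 members lay the other way, against 41.0%.

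The number called depended on the libraries and the fit, while the direction of the median did not in any setting run. Without any 1 of the 4 control libraries no member was called, in fits where the lone library left is assumed to vary like the other groups. Without Sox4cKO CD44minus replicate 1 the count was 67, all higher, against 24.1% of all genes called higher (4931 genes, with 2456 called lower). Without its replicate 2 it was 65, all higher, against 23.0% (4703 genes, with 2433 called lower). With the animal as a block in edgeR, which pairs the gates of each animal, 53 members were called higher and 1 lower, against 7.37% of all genes called higher (1506 genes, with 2153 called lower). Over 20 other settings the median stayed between 1.73 and 3.19 and 76 to 80 members were positive. Relative to the median of all genes, the 5 other scalings gave 2.70 to 2.84, against 2.70 as reported. T cell and mast cell markers moved with the gate too, and their part in the difference was not tested.

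**Figure D3:**
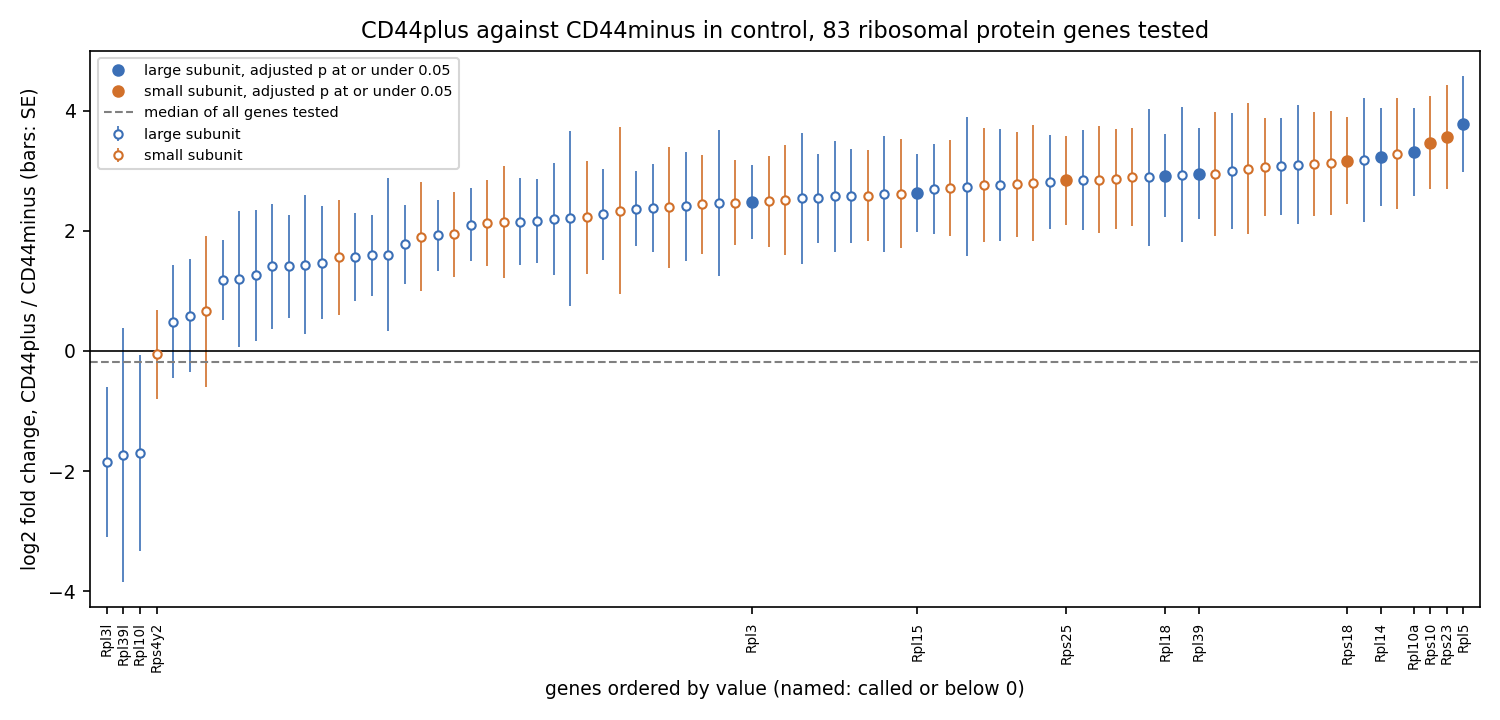
log2 fold change of CD44plus over CD44minus in control for the 83 members tested, ordered by value. SE bars are derived from edgeR's F statistic, and names mark genes that are called or below 0. Filled points have an adjusted p of 0.05 or less (11 genes, all higher), the dashed line is the median of all genes tested (-0.19), and the 4 genes below 0 are the paralogs Rpl3l, Rpl39l, Rpl10l and Rps4y2.

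Among the 11 called genes, Rpl5 had the largest fold. Rpl5 encodes a partner of the 5S ribosomal RNA that, together with Rpl11, can bind Mdm2 and so stabilise p53. Its level was 2.69 and 1.18 CPM in CD44minus and 25.7 and 25 CPM in CD44plus of control mice (log2 fold change 3.78, SE 0.80, edgeR adjusted p = 0.0232). The groups were far apart, but the CD44minus level rested on few reads. Its partner Rpl11 was at 0.674 and 0.786 CPM and at 4.91 and 2.01 CPM in the same groups (2.21, SE 1.46, edgeR adjusted p = 0.323).

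The 4 called small subunit genes were Rps23, a protein of the decoding centre, Rps10, Rps18 and Rps25. Rps23 rose from 2.69 and 1.57 CPM in CD44minus to 16.6 and 32.7 CPM in CD44plus (log2 fold change 3.56, SE 0.86, edgeR adjusted p = 0.038). Its CD44minus levels rest on 4 and 4 reads, so the size of this fold is uncertain too. Rps10, which lies near the mRNA entry and is ubiquitinated when ribosomes stall, rose from 5.39 and 8.65 CPM to 74.5 and 83.7 CPM (3.46, SE 0.77, edgeR adjusted p = 0.027). In each of these genes even the lower CD44plus value was several times the higher CD44minus value.

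The other called large subunit genes had log2 fold changes of 2.48 to 3.32. Rpl10a, which sits at the L1 stalk near the exit site, rose from 2.69 and 4.32 CPM in CD44minus to 35.6 and 36.5 CPM in CD44plus (3.32, SE 0.74, edgeR adjusted p = 0.0267). Rpl14 was at 17.5 and 26.3 against 187 and 226 CPM (3.22, SE 0.82, edgeR adjusted p = 0.0458). Rpl3, a core protein near the peptidyl transferase centre, was at 11.5 and 14.2 against 75.3 and 68.5 CPM (2.48, SE 0.61, edgeR adjusted p = 0.0405). Rpl15, Rpl18 and Rpl39 completed the set with 2.64, 2.92 and 2.95. Exons of 7 of the 11 called genes, among them Rpl5, Rps10 and Rpl15, overlap those of another annotated gene, against 22 of all 84 members. Whether HTSeq counted by strand is not given in the sources used here. The part of such overlaps in the calls was not tested.

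The most abundant members showed folds as large without passing the test. Rpl4, a core protein lining the exit tunnel, had the highest CPM of all members in every library. In CD44minus it read 156 and 273 CPM for control and 128 and 814 CPM for Sox4cKO. In CD44plus it read 1396 and 1458 CPM for control and 1347 and 1642 CPM for Sox4cKO. All 4 CD44plus values were above all 4 CD44minus values (control log2 fold change 2.73, SE 1.16, edgeR adjusted p = 0.181). Rplp0, the base of the stalk that recruits elongation factors, was at 84.9 and 232 against 843 and 1005 CPM in control (2.54, SE 1.09). Its partner Rplp1 was at 48.5 and 113 against 630.2 and 840.4 CPM (3.18, SE 1.04), and Rplp2 at 45.1 and 77.4 against 320.4 and 412 CPM (2.57, SE 0.92). The 3 stalk genes thus lay within 1 SE of each other in fold, and none was called (edgeR adjusted p = 0.104 to 0.185).

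Further genes of known function gave the same picture. Rps3, of the mRNA entry channel, had 55.9 and 136 CPM in CD44minus controls against 729 and 846 CPM in CD44plus controls (log2 fold change 3.04, SE 1.09). Rps2, beside it, was at 16.2 and 68.0 against 164 and 213 CPM (2.15, SE 0.94). Rps14, of the platform, was at 29.0 and 67.2 against 302 and 359 CPM (2.77, SE 0.88). None of these 3 passed edgeR's test, though the 2 CD44plus values were above both CD44minus values in each. Rpsa, also known as a laminin receptor, was at 16.2 and 25.2 against 86.9 and 95.5 CPM (2.13, SE 0.71). Rps19 was at 6.06 and 25.6 against 142 and 173 CPM (3.28, SE 0.92). Rpl13a, which leaves the ribosome upon interferon signalling, was at 83.5 and 201 against 896 and 1281 CPM (2.93, SE 1.12). In these genes too the gates did not overlap in control. Rps6, the substrate of S6 kinase, had few reads, at 2.02 and 1.97 against 8.94 and 9.86 CPM (2.23, SE 0.94). Rps27a, made as a fusion with ubiquitin, was at 3.37 and 2.75 against 14.3 and 19.0 CPM (2.45, SE 0.82). Smaller folds stood at Rpl10, near the peptidyl transferase centre, with 1.41 (SE 0.85), and Rpl23a, at the tunnel exit, with 1.26 (SE 1.09).

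Rpl26 could not be tested. It had 0 reads in all 4 CD44minus libraries, which allows up to 3 reads in each (0.431 to 3.39 CPM of unscaled gene counts), and 13, 7, 11 and 9 reads in the CD44plus libraries. Its CD44plus levels of 0.853 to 1.59 CPM thus lay near the limit of detection in CD44minus.

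In Sox4cKO mice the same contrast had the same direction with a smaller median. No member passed edgeR's test, against 1.66% of all genes called higher and 0.93% called lower, and DESeq2 called 6 higher, against 4.74% of all genes higher and 6.96% lower. At an unadjusted p under 0.05 in edgeR, 30 of 83 members were higher and none lower, against 8.35 and 9.33% of all genes. The median log2 fold change was 1.55 (large subunit 1.5, small subunit 1.63) when that of all genes was -0.48. Both CD44plus values were above both CD44minus values for 72 members and the reverse held for 1, against 21.1 and 16.2% of all genes. The smallest p-values were those of Rpl22l1 (6.44 and 16.3 against 35.6 and 63.1 CPM, log2 fold change 2.08, SE 0.61, edgeR adjusted p = 0.0774), Rps18 (2.23, SE 0.67, edgeR adjusted p = 0.0886) and Rpl12 (2.32, SE 0.70, edgeR adjusted p = 0.0904). The size depended on Sox4cKO CD44minus replicate 2, without which the median was 3.02, and on the scaling. Over the 5 other scalings the median ranged from 1.31 to 2.15. With the animal as a block in edgeR 17 members were called, all higher, against 3.95 and 4.43% of all genes. Scaled to the epithelial marker reads, 38 members were called higher here with a median of 2.15, against 4.21% of all genes called higher, 1.64% called lower and a median of -0.59. In control 36 were called higher with a median of 2.09, against 3.07 and 1.91% of all genes and a median of -0.75.

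Genotype gave no call in the crypt-enriched gate. Sox4cKO against control in CD44plus had no member with an edgeR adjusted p of 0.05 or less, against 0.0% of all genes, and DESeq2 called none. None was at an unadjusted p under 0.05 either, against 0.181% of all genes higher and 0.445% lower. The median log2 fold change was -0.06, with 33 members above and 50 below 0. The lower bounds of the members' approximate 95% intervals had a median of -1.63 and the upper bounds one of 1.54. The widest bounds were -7.29 and 2.99. These intervals take the SE as if it were known exactly, so they are too narrow for 8 libraries. The 2 genotypes did not overlap for 5 members that were higher and 11 that were lower in Sox4cKO, against 14.2 and 16.4% of all genes. Rpl10a was among the latter, with 26.9 and 21.3 CPM in Sox4cKO against 35.6 and 36.5 CPM in control (-0.58, SE 0.62, edgeR adjusted p = 1). Rps6 was among the former, with 14.5 and 14.2 CPM in Sox4cKO against 8.94 and 9.86 CPM in control (0.61, SE 0.83, edgeR adjusted p = 1). Rpl39l had the smallest p but only 7 and 3 reads in control and 1 and 0 in Sox4cKO, and Rpl36 followed (-0.49, SE 0.65).

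In the villus-enriched gate the genotype difference changed with 1 library and with the scaling. As scaled by TMM, the median was 0.99 with 77 of 83 members positive, when that of all genes was 0.19. No member was called by edgeR or DESeq2, against 0.0% of all genes. At an unadjusted p under 0.05 in edgeR 3 were higher and none lower, against 0.534 and 0.0343% of all genes: Rpl5 (log2 fold change 2.30), Rps26 (1.72) and Rps10 (1.61). The 2 genotypes did not overlap for 7 members that were higher and 2 that were lower in Sox4cKO, against 6.52 and 5.94% of all genes. Rps10 had 6.44 and 36.5 CPM in Sox4cKO against 5.39 and 8.65 CPM in control, so the higher mean came from replicate 2 alone. Rps26 likewise had 4.72 and 13 CPM in control against 5.94 and 53.4 CPM in Sox4cKO. Without that library the median became -0.63, and without Sox4cKO CD44minus replicate 1 it was 1.70 and 50 members were called higher, against 27.6% of all genes called higher and 9.96% lower. Scaled to the epithelial marker reads the median was -0.01, with 41 of 83 members positive and none called. The difference of the genotype effect between the gates had a median of -1.04 and no call by edgeR or DESeq2, against 0.0% of all genes. At an unadjusted p under 0.05 in edgeR it had 1 lower member, Rpl5, and no higher one, against 0.152 and 0.093% of all genes. Its median lay at 0.60 without Sox4cKO CD44minus replicate 2 and at 0.01 with the epithelial scaling.

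Among the paralogs the gate difference was not shared by all. The 4 members with a log2 fold change below 0 in control were paralogs, whereas all 76 tested members that are not paralogs were positive. Rps4y2, annotated as Rps4l on chromosome 6 (GRCm38, 148354656 to 148355598) and as a transcribed processed pseudogene of 1 exon, had enough reads to measure. In CD44minus it had 15.5 and 48.7 CPM for control and 14.4 and 106 CPM for Sox4cKO. In CD44plus it had 36.2 and 26.3 CPM for control and 47.4 and 43.1 CPM for Sox4cKO. The gates overlapped (control log2 fold change -0.05, SE 0.74, edgeR adjusted p = 0.961, with a log2 fold change of 0.13 under the animal block; Sox4cKO -0.42, SE 0.73). Its X-linked partner Rps4x was at 12.8 and 32.6 against 174 and 158 CPM in control (2.85, SE 0.89, edgeR adjusted p = 0.0903). Of the reads of both genes, Rps4y2 took 54.8 and 59.9% (control) and 53.7 and 49.4% (Sox4cKO) in CD44minus. In CD44plus it took 17.2 and 14.3% (control) and 25.3 and 18.7% (Sox4cKO). The shares did not overlap between gates. Of the transcript 50-mers of Rps4y2, 18% occur in another gene, against 72.2% of those of Rps4x. The shares are of uniquely placed reads, and the part of this difference in them was not tested.

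Other pairs differed. Rps27l, a p53 target, took 79.3 to 96.0% of the reads of Rps27 and Rps27l in all libraries, and 98.6% of the 50-mers (stretches of 50 bases) of the Rps27 transcript occur in other annotated genes, where a read of that length would not be uniquely placed. Rps27l itself had 10.1 and 24.4 CPM in CD44minus controls against 61.2 and 73.4 CPM in CD44plus controls (log2 fold change 1.94, SE 0.70, edgeR adjusted p = 0.133). Rpl22l1 took 8.0 to 19.2% of its pair with Rpl22 and had a log2 fold change of 2.36 (SE 0.62) beside 3 (SE 0.97) for Rpl22, neither of them called. Rpl7l1 took 36.6 to 45.8% of its pair in 3 CD44minus libraries and 21.8 to 26.5% in Sox4cKO CD44minus replicate 2 and the CD44plus libraries. This pair is unequal too, with 9.19% of 50-mers shared in Rpl7l1 and 53.3% in Rpl7. The muscle and heart paralog Rpl3l and the testis paralogs Rpl10l and Rpl39l had 0 to 60 reads in each library. Rpl3l was at 14.1 and 17.3 CPM in the 2 CD44minus libraries of highest background and at 0.548 to 7.86 CPM in the other 6. Its 21 and 35 reads in those 2 libraries compare with 2.82 and 4.24 reads of predicted background. Counts of Rpl10l were no higher than predicted background, within their Poisson intervals, in those same 2 libraries and in Sox4cKO CD44plus replicate 2.

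**Figure D4:**
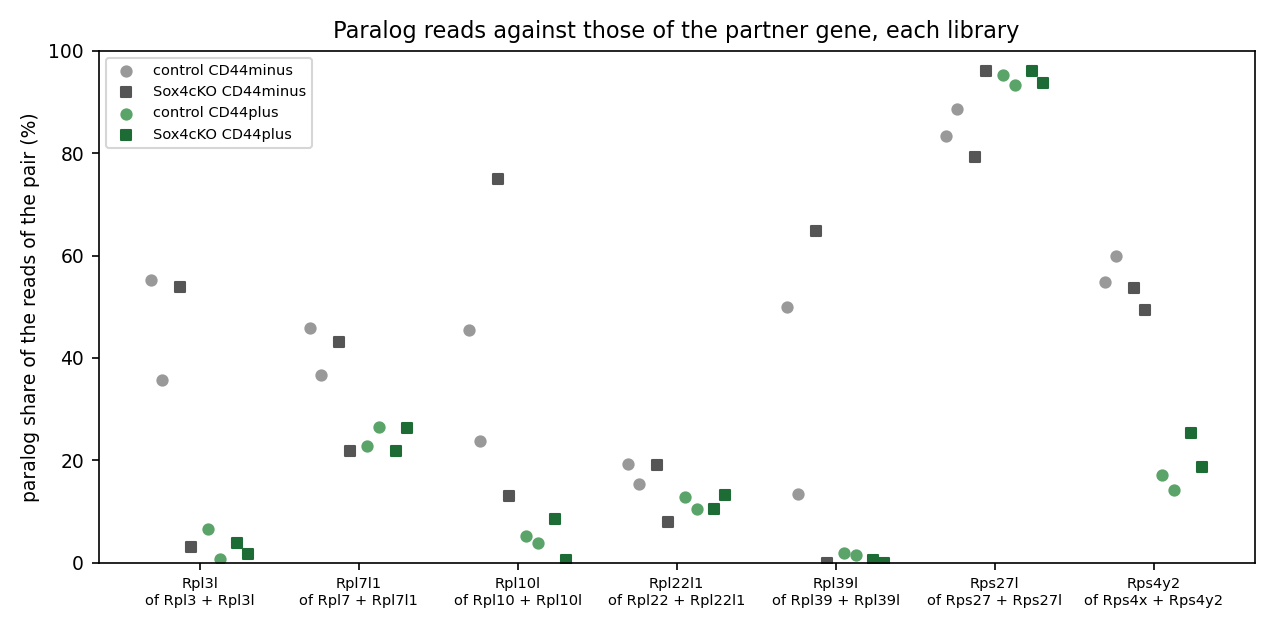
Share of each paralog in the summed reads of the paralog and its partner, one point for each library. Rps4y2 lies between 49.4 and 59.9% in CD44minus and between 14.3 and 25.3% in CD44plus, while Rps27l lies above 79% throughout; Rpl3l, Rpl10l and Rpl39l rest on few reads.

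Levels between genes were compared per kilobase (kb) of 1 transcript for each gene, a coding one where annotated, as the mean CPM per kb over 8 libraries. They spanned 1.16 to 871 CPM per kb, although a ribosome holds most of its standard proteins in equal number. In the large subunit Rpl8 (871 CPM per kb), Rplp1 (829) and Rpl13a (625) were highest and Rpl26 (1.16), Rpl39l (1.70) and Rpl10l (1.91) lowest. In the small subunit Rps15 (458) and Rps9 (372) were among the highest and Rps13 (5.77), Rps6 (8.21) and Rps27 (8.95) were lowest. The annotated transcripts of Rps15a and Rps20 are long (5130 and 3706 bases), which lowers their values on this scale.

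The level per kb moved with the share of the transcript that other genes repeat. Of the 84 genes, 81 share at least one 50-base stretch with an annotated pseudogene, and multi-mapping reads did not enter the counts. Leaving out the paralogs, the median was 366 CPM per kb for the 10 genes with under 25% of 50-mers shared, 71.1 for 25 genes with 25 to 50%, 32.9 for 22 genes with 50 to 75%, and 21.3 for 20 genes with 75% or more. The median was lower in each class than in the one before, but single genes departed from this order: Rplp1 has 60.0% shared and is among the highest. Spearman's rho was -0.46 over the 77 genes, which come from the same libraries and share base composition and length limits. With the paralogs it was -0.30 over 84 genes, -0.21 in the large subunit and -0.40 in the small subunit. Levels between members describe uniquely placed reads and may not rank their mRNA. The part of shared sequence in the levels was not tested. The median gate difference in control was 2.91, 2.70, 2.41 and 2.16 in the 4 classes from low to high sharing.

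**Figure D5:**
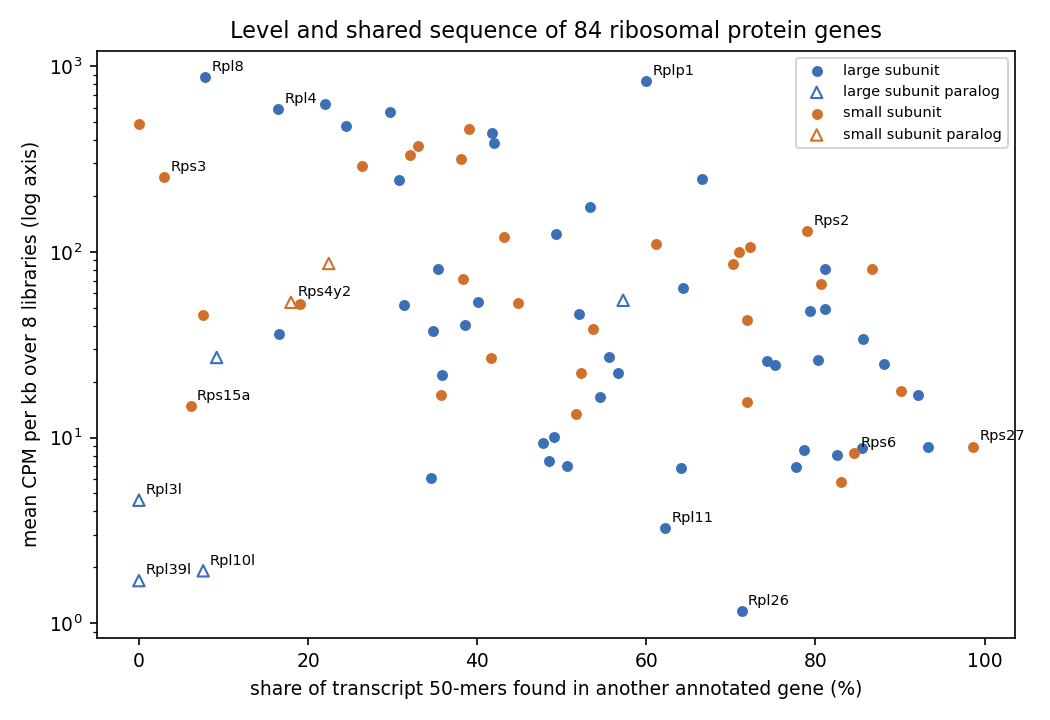
Mean CPM per kb (log axis) against the share of transcript 50-mers found in another annotated gene, for 84 ribosomal protein genes. Genes with little shared sequence such as Rpl8 and Rpl4 lie high and Rps27 and Rps6 low, with the paralogs (open triangles) apart from this order.

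Start sites were examined for the letters CTTTCC, a pyrimidine run, and for CCGGAAG, the core of ETS factor sites. RefSeq promoters of GRCm38.p6 (250 bases before to 50 after the start) were at hand for 63 of the 84 genes. On either strand, CCGGAAG was in 41.3% of these and in 9.93% of all 27025 genes with a promoter, and CTTTCC in 52.4 and 29.3%. AAGATGGC, the letters of a YY1 site, was in 9.52 and 3.19%, and TATAAA in 11.1 and 15.7%. On the sense strand within 35 bases before to 25 after the start, CTTTCC was in 19.0% of the 63 genes and in 3.43% of all. CCGGAAG and AAGATGGC can share the letters AAG, and no such case is in the windows shown. The windows of the most abundant member, of 5 of the genes called in control and of 1 paralog that was not higher in CD44plus are shown from RefSeq, 5′ to 3′ on the gene's strand, with CTTTCC and CCGGAAG in capitals. Each window has 35 bases before the annotated start; CTTTCC begins at base 19 in Rpl4, before that start, and at base 39 or 40 in Rpl18, Rpl15 and Rps10, after it.
Rpl4 (chr9:64173352-64173411, +): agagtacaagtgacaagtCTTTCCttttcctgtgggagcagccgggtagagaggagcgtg
Rpl15 (chr14:18270962-18271021, -): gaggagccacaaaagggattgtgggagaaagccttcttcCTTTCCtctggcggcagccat
Rpl18 (chr7:45718036-45718095, +): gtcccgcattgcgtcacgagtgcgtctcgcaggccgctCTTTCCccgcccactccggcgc
Rps10 (chr17:27635220-27635279, -): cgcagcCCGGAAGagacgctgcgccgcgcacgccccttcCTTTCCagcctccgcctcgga
Rpl5 (chr5:107900493-107900552, +): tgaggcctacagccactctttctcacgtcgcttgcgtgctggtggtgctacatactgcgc
Rpl14 (chr9:120571482-120571541, +): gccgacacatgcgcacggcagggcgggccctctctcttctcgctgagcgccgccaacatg
Rpl10l (chr12:66284377-66284436, -): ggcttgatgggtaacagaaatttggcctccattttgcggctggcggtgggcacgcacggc
Called genes thus occur with and without these letters. A match is a description of the letters, and a window without them says nothing of the factors.

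Other genes of the ribosome's life cycle were set beside the members in the control gate comparison. Of 63 ribosome biogenesis factors tested, 13 rose in CD44plus and none fell, against the 2.01 and 0.445% of all genes given above, which apply to each list here, 62 were positive and the median log2 fold change was 1.88. Gnl3 (nucleostemin) rose from 5.39 and 11.4 CPM in CD44minus to 116 and 119 CPM in CD44plus (3.77, SE 0.73, edgeR adjusted p = 0.0174), and Dkc1, the pseudouridine synthase of box H/ACA particles, was at 3.37 and 10.2 against 104 and 88.9 CPM (3.77, SE 0.78, edgeR adjusted p = 0.0221). Wdr75 (3.24) and Nop10 (3.22) were called too. Of 7 snoRNA host genes with a TOP start, 2 were called, Snhg1 (3.83) and Snhg5 (3.22), and the median was 3.02. Of 38 initiation factors all were positive with a median of 2.01, and 1 was called, Eif3e (2.98, SE 0.73, edgeR adjusted p = 0.04). Of 12 elongation and release factors 11 were positive with a median of 1.95, and none was called.

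Regulators and the mitochondrial machinery gave smaller medians. Myc, which drives ribosome synthesis, rose from 16.2 and 14.2 CPM in CD44minus to 144 and 150.1 CPM in CD44plus (log2 fold change 3.28, SE 0.68, edgeR adjusted p = 0.0223). Of 21 regulators tested it was called with Trp53 (2.83), and the median was 1.35. In Sox4cKO mice Myc was called too (3.92), as were 5 of 63 biogenesis factors, against 1.66% of all genes called higher. Their median of 1.63, with all positive, lay above the members' 1.55 there. In control mice the 76 mitochondrial ribosomal protein genes had a median of 1.47 with 74 positive and none called, and the 78 respiratory chain genes encoded in the nucleus one of 0.96 with 72 positive and none called. In control the median of the cytosolic members (2.52) was above those of these lists except the snoRNA hosts, which was not tested. Reads counted for Rn45s, the gene of the ribosomal RNA precursor, did not follow the members: the gates overlapped. In CD44minus Rn45s had 61684 and 104548 CPM for control and 57929 and 230324 CPM for Sox4cKO. In CD44plus it had 101084 and 87236 CPM for control and 141159 and 111193 CPM for Sox4cKO. As a share of gene counts, without TMM scaling, the CD44minus libraries differed far less. Rn45s made up 10.3 and 11.4% (control) and 9.95 and 12.1% (Sox4cKO) in CD44minus. In CD44plus it made up 9.24 and 7.95% (control) and 12.7 and 8.87% (Sox4cKO). Whether these reads came from the precursor or from mature ribosomal RNA was not tested. They therefore do not show whether ribosomal RNA synthesis differed between the gates.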

How the data were processed

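RNA of sorted CD326+ cells was sequenced in 8 libraries. The deposited tables hold read counts per gene symbol, which the authors made, per the submitters' processing notes, with HTSeq 0.6.1p1, STAR 2.2.5b, Trimmomatic 0.36 and bcl2fastq 2.17.4 on mm10. Settings and strand mode are not given in the sources used here. Multi-mapping reads (34.9 to 46.9% of aligned reads) did not enter the gene counts, and 64.6 to 96.6% of uniquely placed reads fell in no gene.

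Counts were fitted for all genes and 8 libraries with edgeR 4.0.16 (R 4.3.3; quasi-likelihood test, filterByExpr with a minimum count of 10, TMM factors of 0.527 to 1.72, Benjamini-Hochberg adjustment over 20427 genes, threshold 0.05). The script was run on simulated counts with less spread than these data, which checks the code and does not show how many changes it would find here. SE is the size of the log2 fold change divided by the square root of edgeR's F statistic. DESeq2 1.42.0 and limma 3.58.1 served for alternatives. The animal number in the table names is the same for both gates of an animal; deviations from group means correlated between gates at 0.103 (control) and 0.526 (Sox4cKO), so the animal was also fitted as a block, in edgeR between gates and as a random term in limma's voom between genotypes. Animals of different genotype that share a number correlated too, at 0.275 in CD44plus and 0.600 in CD44minus, and a block for that number across genotypes was added in edgeR. Symbols were matched to GENCODE M21 on GRCm38 (98.5%). Lengths are those of 1 transcript, a coding one where annotated. Background is the reads per coding base on receptor genes of smell and pheromones.

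Named genes are members fixed by role, paralog pairs, the 3 highest and lowest per subunit in CPM per kb, up to 5 called genes per direction and comparison or else the 3 of smallest p, and up to 4 genes per list; Rpl13, Rpl9 and the remaining called genes were chosen after their values were seen, and some genes the rule names are not reported here. The members and lists were chosen with earlier results of these data known. Each group has 2 animals, so p-values rest on a spread shared over all 4 groups.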

Additional observations from a re-analysis of the deposited data

How the results depend on the processing

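Results between the gates kept their direction and lost or gained calls. For CD44plus against CD44minus in control, 11 members were called; the count was 48 with DESeq2, 7 with DESeq2 size factors, 49 with library totals, 28 without Rn45s, 32 without the filter, 67 with the 4 libraries alone, 51 after subtracting background, 54 with the animal as replicate block, and 0 to 67 leaving out 1 library. For Sox4cKO no member was called; the count was 6 with DESeq2, 39 with library totals, 6 with upper quartile factors, 7 without Rn45s, 4 without the filter, 35 after subtracting background, 17 with the replicate block and 0 to 68 leaving out 1 library, with a median of 0.88 to 3.02. The animal block changed no other count. The share of all genes called moved as well, from 0 to 54.9% in control and from 0 to 41.3% in Sox4cKO over the settings run. Where a setting's own share of all genes is not given, its count does not show that members exceeded that share. A replicate block for the number that animals of both genotypes share was also chosen after seeing the data. It gave 59 calls in control and 20 in Sox4cKO, all higher, and its own share of all genes called is not given. It gave none for genotype or the difference between gates. Chosen after seeing the data, leaving out both replicate 1 CD44minus libraries gave 61, 30, 43 and 29 calls (gates in control, gates in Sox4cKO, genotype in CD44minus, difference between gates), and scaling to epithelial marker reads gave 36 and 38 for the gates and medians of -0.0053 for genotype in CD44minus and 0.00805 for the difference. Leaving out 1 library, the genotype comparison ranged from 0 to 50 calls and -0.63 to 1.70 in CD44minus and from -0.20 to 0.046 with no call in CD44plus, and the difference from 0 to 7 calls and -1.71 to 0.60. Upper quartile factors gave summed CPM of 11844 in control and 10973 in Sox4cKO CD44plus, against 14477 and 14091. Leaving out 1 library, Rps10 ranged from -0.17 to 2.32 and Rps26 from -0.66 to 2.67 for genotype in CD44minus and Rps10 from -2.30 to 0.19 in the difference, each with its sign turned without Sox4cKO CD44minus replicate 2. Rps4y2 between gates in control ranged from -0.64 to 1.01, above 0 without replicate 2 of either gate, and was 0.13 with the animal block and 0.25 with the block for the shared number. Apart from these and the epithelial scaling, the causes were not tested. In the 2 shallowest CD44minus libraries the median member had 11.5 and 12.5 reads, which limits single genes there.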
